A study of Homo sapiens with 2 samples.

Results

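Pairs of neighboring Cdx peaks at a nucleosome-like spacing were examined in the ChIP-seq libraries of the tagged proteins FLAG-wt-Cdx1 and FLAG-wt-Cdx2. A pair was defined by the summit positions in 1 peak list, as 2 consecutive peaks on an autosome whose summits lay 140 to 400 bp apart, and both peaks of a pair are called members. With FLAG-wt-Cdx1, 2893 pairs were found, and they held 5733 of the 194156 autosomal peaks (2.95%; 95% Wilson interval, 2.88 to 3.03) out of 196910 peaks in all. With FLAG-wt-Cdx2, 2700 pairs held 5351 of the 214831 autosomal peaks (2.49%; 2.43 to 2.56) out of 218718. With only peaks at a −log10 q of at least 5, 609 and 295 pairs were left, which held 1.20% and 0.941% of those peaks. As the members were selected by their summit positions, the spacing of the summits is given as a description.

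The cells were DLD1-TetOff, human colon cancer cells in which a transfected FLAG-tagged mouse Cdx1 or Cdx2 is held off by doxycycline (DOX). Each library came from 10 pooled dishes that were fixed for 5 min with 1% formaldehyde at 20 h after DOX (0.5 µg/mL) had been withdrawn. The sample descriptions speak of cells not expressing the tagged protein in the presence of DOX, whereas the protocols state withdrawal, and the libraries were taken as induced. Chromatin was cut with MNase for 50 min to fragments of about 150 bp and precipitated with anti-FLAG beads. There was 1 library per factor, each from a TetOff line carrying that factor, and no input or untagged library was analyzed here. Therefore, a difference between the lists cannot be told apart from a difference between libraries or lines, no test between the factors was made, and all intervals cover counting error only.

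CDX1 and CDX2 are homeodomain proteins that bind AT-rich DNA and keep the identity of intestinal epithelial cells. In chromatin, DNA is wrapped around histone octamers to form nucleosomes, which repeat along the fiber with a short linker between them. MNase digests the linker and leaves nucleosomal DNA and DNA covered by other proteins, so that fragments of an MNase ChIP end near the borders of such particles. If peaks followed single nucleosomes, neighboring summits would be frequent at 1 repeat (about 150 to 200 bp) and at 2 repeats (about 330 to 400 bp).

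The lists held almost no pairs at 1 repeat. The shortest distance between neighboring summits was 178 bp in the FLAG-wt-Cdx1 list and 180 bp in the FLAG-wt-Cdx2 list, and no pair lay between 140 bp and these values. Only 7 FLAG-wt-Cdx1 pairs and 9 FLAG-wt-Cdx2 pairs lay in the window of 150 to 200 bp, against 164 and 169 pairs at 200 to 250 bp. The density at 150 to 200 bp was thus 0.0427 times that at 200 to 250 bp with FLAG-wt-Cdx1 (95% exact interval, 0.0169 to 0.0899) and 0.0533 times with FLAG-wt-Cdx2 (0.0239 to 0.104). The peak calling bounds this lower edge. No peak was shorter than the estimated fragment length of 131 or 136 bp, and no edges of neighboring peaks lay closer than 100 or 99 bp, respectively, where the tag size was 99 or 98 bp. With summits in the middle of peaks of the shortest length, neighbors could thus not lie closer than 231 bp or 235 bp. Below these distances lay only 71 FLAG-wt-Cdx1 pairs (2.45%) and 89 FLAG-wt-Cdx2 pairs (3.30%), in which the summits leaned toward each other within their peaks. A spacing of 1 nucleosome repeat could therefore not be seen between neighboring peaks of 1 list.

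From there the number of pairs rose to a plateau without a separate maximum at 2 repeats. With FLAG-wt-Cdx1, it grew from 30 pairs at 200 to 220 bp to 243 at 260 to 280 bp, 349 at 300 to 320 bp, 418 at 340 to 360 bp and 461 at 380 to 400 bp. With FLAG-wt-Cdx2, the same windows held 32, 231, 354, 410 and 396 pairs. The window of 380 to 400 bp was the highest of 20 bp up to 1000 bp with FLAG-wt-Cdx1, and the next one held 394 neighbors. The median spacing of the pairs was 334 bp (quartiles, 295 and 368 bp) with FLAG-wt-Cdx1 and 331 bp (294 and 366 bp) with FLAG-wt-Cdx2. These medians follow from a rising density cut at 400 bp, because the pairs go on at the same density beyond it.

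At 330 to 400 bp, FLAG-wt-Cdx1 had 217 pairs per 10 bp, against 159 at 260 to 330 bp and 207 at 400 to 470 bp. The ratio to both flanks was 1.19 (95% exact interval, 1.12 to 1.27), but the lower flank lies on the rising edge, and the ratio to the upper flank alone was 1.05 (0.977 to 1.13). FLAG-wt-Cdx2 had 194 pairs per 10 bp in this window, 152 below it and 211 above it. Its ratio was 1.07 to both flanks (1.00 to 1.14) and 0.918 to the upper flank (0.852 to 0.989). An excess near 2 repeats over the distances just above was thus not detectable in either list. The single most frequent distance was 367 bp with FLAG-wt-Cdx1 (38 pairs), and 326 bp was among the most frequent with FLAG-wt-Cdx2 (28 pairs), against medians of 21 and 20 pairs per distance from 300 to 400 bp. Within 10 bp of the limit of 400 bp, 233 FLAG-wt-Cdx1 distances lay inside and 196 outside, and 184 FLAG-wt-Cdx2 distances lay inside and 225 outside.

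**Figure D1:**
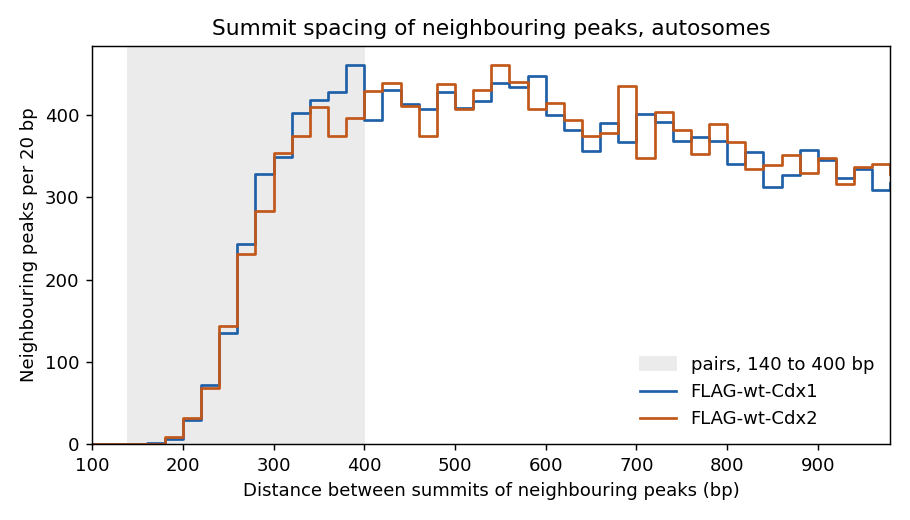
Number of neighboring peaks per 20 bp (vertical axis) by the distance between their summits in bp (horizontal axis) for FLAG-wt-Cdx1 (blue) and FLAG-wt-Cdx2 (orange), with the range of the pairs in gray. Both lines start at about 180 bp and rise steeply until about 340 bp. The FLAG-wt-Cdx1 line rises further, to its highest value of 461 at 380 to 400 bp, and is at 394 in the next bin. Both lines are then about level until about 600 bp and fall slowly, to 309 and 341 at 960 to 980 bp.

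Farther out, the density of neighbors fell slowly. It was 211 per 10 bp at 400 to 600 bp in the FLAG-wt-Cdx1 list and 212 in the FLAG-wt-Cdx2 list, 166 and 170 at 800 to 1000 bp, and 103 and 109 at 2000 to 5000 bp. The median distance of all neighboring autosomal peaks was 9003 bp in the FLAG-wt-Cdx1 list and 8638 bp in the FLAG-wt-Cdx2 list. The pairs are thus the short end of a distribution that reaches over several kilobases.

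Distances between the lists are not bounded by this edge directly, as the libraries were called separately, but a summit that has a match in the other list carries over the edge of that list. A summit of one list and a summit of the other lay within 50 bp of each other 43823 times, at 50 to 100 bp 12922 times, and at 100 to 150 bp 4540 times. At 150 to 200 bp, 3006 such distances were counted, and at 200 to 250 bp 2257. The density at 150 to 200 bp was 0.885 times that of its flanks (95% exact interval, 0.847 to 0.923), on a curve that fell from each of these windows to the next, being 0.662 times the lower flank (0.632 to 0.693) and 1.33 times the upper flank (1.26 to 1.41). At 330 to 400 bp, 2911 distances were counted, against 2808 at 260 to 330 bp and 2907 at 400 to 470 bp. The ratio to the flanks was 1.02 (0.974 to 1.07). In windows of these widths, no maximum was thus seen between the lists at 1 repeat or at 2 repeats. On a falling curve, the ratio to both flanks depends on the shape of the fall. A small excess at 150 to 200 bp could therefore not be told from none. Summits without a match within 100 bp do not carry over the edge, and 137267 FLAG-wt-Cdx1 and 157942 FLAG-wt-Cdx2 summits were of this kind. Between them, the density fell from 592 per 10 bp at 150 to 200 bp to 406 at 200 to 250 bp, 265 at 260 to 330 bp, 227 at 330 to 400 bp and 210.0 at 400 to 470 bp. The ratio to the flanks was 0.923 at 150 to 200 bp (0.883 to 0.964) and 0.954 at 330 to 400 bp (0.898 to 1.01), again without a maximum.

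**Figure D2:**
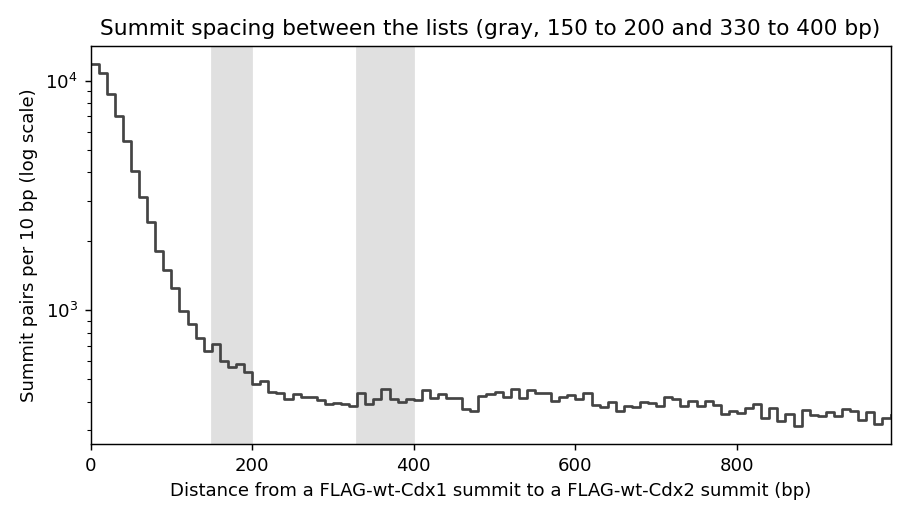
Number of distances per 10 bp (vertical axis, log scale) between a FLAG-wt-Cdx1 summit and a FLAG-wt-Cdx2 summit, by distance in bp (horizontal axis), with 150 to 200 bp and 330 to 400 bp in gray. The curve falls from 0 to about 250 bp and is then nearly level, at 413 per 10 bp for 250 to 300 bp and 421 per 10 bp for 400 to 600 bp.

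Closely spaced summits can also fall inside 1 long peak. Peaks of at least 2 fragment lengths (262 bp or 272 bp) made up 11.9% of the autosomal FLAG-wt-Cdx1 peaks and 12.1% of the FLAG-wt-Cdx2 peaks. Over 24 windows of 20 bp from a length of 130 bp on, the number of peaks fell from each window to the next in both lists, with no separate class of longer peaks. In addition, 326 of the 194156 autosomal FLAG-wt-Cdx1 peaks covered 2 or more FLAG-wt-Cdx2 summits. Likewise, 307 of the 214831 autosomal FLAG-wt-Cdx2 peaks covered 2 or more FLAG-wt-Cdx1 summits. The median lengths of these peaks were 675 bp and 610 bp, against 183 bp for peaks covering 1 summit in either list. A peak that covers 2 summits must be longer than their spacing, so a greater length was set by this selection.

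Most pairs stood alone. Of the FLAG-wt-Cdx1 runs of peaks, each 140 to 400 bp from the next, 2788 had 2 peaks, 51 had 3 and 1 had 4. With FLAG-wt-Cdx2, 2602 had 2 peaks, 49 had 3 and none had more. The nearest peak outside a pair was a median of 5243 bp away in the FLAG-wt-Cdx1 list and 5874 bp in the FLAG-wt-Cdx2 list, and it lay within 1000 bp for 16.3% and 13.2% of the pairs. For pairs spaced over 400 and up to 1000 bp, used below as the comparison pairs (11343 in the FLAG-wt-Cdx1 list and 11496 in the FLAG-wt-Cdx2 list), these medians were 5459 bp and 5975 bp. Their shares within 1000 bp were 14.2% and 11.7%, so standing alone was not particular to the pairs. Runs of 3 or more called peaks at this spacing were thus rare in both lists. Pairs were themselves uncommon, with 2.95% and 2.49% of all autosomal peaks as members. Arrays at 1 nucleosome repeat could not be seen as runs, because of the lower edge set by the peak calling.

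The 3 runs named per list are the longest ones, and those of 3 peaks were taken from the many of equal length by their lowest fold enrichment. The FLAG-wt-Cdx1 run of 4 peaks lay on chromosome 19, with summits from position 30558735 to 30559744 (GRCh37, the build named in the submitters' processing notes). Its spacings were 336, 356 and 317 bp, and its pileups, the numbers of fragments over each summit, were 11, 9, 7 and 13. Only 2 FLAG-wt-Cdx2 summits were found there, with pileups of 7 and 9. On chromosome 20, a FLAG-wt-Cdx1 run from 17162482 to 17163190 had spacings of 384 and 324 bp and pileups of 19, 21 and 18, and FLAG-wt-Cdx2 had a single peak there, with a pileup of 10. On chromosome 12, a run from 119013404 to 119014130 had pileups of 13, 16 and 14 with FLAG-wt-Cdx1, where FLAG-wt-Cdx2 had 1 peak of 808 bp with a pileup of 20.

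Of the FLAG-wt-Cdx2 runs, that on chromosome 12 from 107443939 to 107444662 had spacings of 358 and 365 bp and pileups of 12, 11 and 10. That on chromosome 18 from 46961539 to 46962146 had spacings of 316 and 291 bp and pileups of 13, 14 and 15. That on chromosome 1 from 200379050 to 200379786 had spacings of 363 and 373 bp and pileups of 10, 17 and 13. FLAG-wt-Cdx1 had 2, 2 and 1 summits at these runs, respectively. None of the 6 runs described had a matching summit for every peak in the other library.

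Members were peaks of ordinary height. Their median pileup was 10 fragments in the FLAG-wt-Cdx1 list (quartiles, 8 and 12) and 8 in the FLAG-wt-Cdx2 list (7 and 10), the same as for all autosomal peaks of each list. Members ranged from 5 to 196 fragments in the former list and from 4 to 196 in the latter. The median fold enrichment, which is the pileup over the local background with a pseudocount of 1 added to each, was 5.00 for members and 5.33 for all autosomal peaks with FLAG-wt-Cdx1, and 4.72 for both with FLAG-wt-Cdx2. The highest fold enrichment of a member was 13.9 in the FLAG-wt-Cdx1 list and 17.1 in the FLAG-wt-Cdx2 list, against 39.0 and 33.6 for all autosomal peaks. Hence the peaks of the very highest enrichment had no neighbor within this range.

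The local background was higher for members than for all autosomal peaks. It was taken from the tags of the same library over 10000 bp, without a control. Fragments of a neighboring peak therefore count in it, and how much of the difference they make up was not tested. Relative to the lowest, genome-wide background of each library, its median was 1.31 for FLAG-wt-Cdx1 members and 1.23 for FLAG-wt-Cdx2 members, against 1.17 and 1.08 for all autosomal peaks. More than 2 times this lowest background was found at 11.7% of the FLAG-wt-Cdx1 members and 13% of the FLAG-wt-Cdx2 members, against 6.04% and 6.12% of all autosomal peaks. Peaks whose nearest neighbor lay over 400 and up to 1000 bp away had similar values, with medians of 1.33 and 1.27 times and shares of 13.3% and 14.1%. Chromosome 8 stood apart with FLAG-wt-Cdx1, as 48.6% of its 440 members had such a background, against 8.63% of the members on the other autosomes. With FLAG-wt-Cdx2 these shares were 6.4% and 13.4%. The shares by chromosome were computed for members only, so they do not set members apart from the other peaks of chromosome 8.

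The peaks of a pair were of similar height. The higher member had a median of 11 fragments and the lower a median of 9 with FLAG-wt-Cdx1, and 9 and 7 with FLAG-wt-Cdx2. The median ratio of the higher to the lower pileup was 1.27 in the FLAG-wt-Cdx1 list (95% interval of the median, 1.25 to 1.29) and 1.25 in the FLAG-wt-Cdx2 list (1.25 to 1.29). Equal pileups were found in 345 FLAG-wt-Cdx1 pairs (11.9%) and 384 FLAG-wt-Cdx2 pairs (14.2%). The ratio was 2 or more in 165 FLAG-wt-Cdx1 pairs (5.70%) and in 180 FLAG-wt-Cdx2 pairs (6.67%), and its largest values were 3.62 and 4.90.

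Pairs at wider spacing were about as even. In the comparison pairs the median ratio was 1.27 in the FLAG-wt-Cdx1 list and 1.29 in the FLAG-wt-Cdx2 list, and ratios of 2 or more made up 7.04% and 8.99%. Pileups span a narrow range in both lists. Their quartiles over all autosomal peaks were 8 and 12 with FLAG-wt-Cdx1, where the lowest was 5. With FLAG-wt-Cdx2 they were 7 and 10, and the lowest was 4. Across pairs, Spearman's rho between the pileups of the members was 0.286 in the FLAG-wt-Cdx1 list (n = 2893) and 0.453 in the FLAG-wt-Cdx2 list (n = 2700), and 0.353 and 0.425 in the comparison pairs. Members share their library and local background, so rho is a description without a p-value. The lower-coordinate member was the higher in 1333 FLAG-wt-Cdx1 pairs and the higher-coordinate member in 1215, and these counts were 1145 and 1171 with FLAG-wt-Cdx2, so that neither side was much favored.

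The closest pairs had slightly lower pileups. In pairs spaced under 250 bp, the median of the higher member was 10 in the FLAG-wt-Cdx1 list (171 pairs) and 8 in the FLAG-wt-Cdx2 list (178 pairs), and pairs whose members were within 1 fragment of each other made up 43.9% and 51.1%. In pairs spaced 350 to 400 bp these medians were 11 and 10, and these shares 33.4% and 41.3%. Lower pileups also bring members within 1 fragment more often, so these shares do not show more even pairs. The median ratios under 250 bp were 1.22 (1.14 to 1.27) and 1.21 (1.17 to 1.29). At 350 to 400 bp they were 1.29 (1.25 to 1.29) and 1.25 (1.25 to 1.29), with overlapping intervals. The longer member was the higher in 67.1% of the FLAG-wt-Cdx1 pairs and 65.2% of the FLAG-wt-Cdx2 pairs without ties.

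A summit of the other library within 100 bp was then sought for each member. Among all autosomal peaks, 29.3% of the FLAG-wt-Cdx1 peaks and 26.5% of the FLAG-wt-Cdx2 peaks had such a match, which is the background for the members. Of the members, 1576 of 5733 were matched with FLAG-wt-Cdx1 (27.5%; 26.3 to 28.7, 95% Wilson interval) and 1455 of 5351 with FLAG-wt-Cdx2 (27.2%; 26.0 to 28.4). A member was thus matched about as often as any other peak, slightly less often with FLAG-wt-Cdx1 and about equally with FLAG-wt-Cdx2.

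Few pairs were repeated as a whole. Both members had a match, each to a different peak, in 181 FLAG-wt-Cdx1 pairs (6.26%; 95% Wilson interval, 5.43 to 7.2) and 180 FLAG-wt-Cdx2 pairs (6.67%; 5.79 to 7.67). Exactly 1 member was matched in 1222 and 1109 pairs, and neither in 1490 (51.5%) and 1411 (52.3%). The comparison pairs were repeated more often, in 9.49% (8.96 to 10.0) with FLAG-wt-Cdx1 and 9.37% (8.85 to 9.91) with FLAG-wt-Cdx2, beyond the counting error. Their products of single shares were 8.65% and 8.24%. In a further 185 FLAG-wt-Cdx1 pairs (6.39%; 5.56 to 7.35) and 176 FLAG-wt-Cdx2 pairs (6.52%; 5.65 to 7.51), both summits lay inside 1 peak of the other list. This was found for only 1.13% (0.95 to 1.34) and 1.33% (1.14 to 1.56) of the comparison pairs. The peak calling bounds both contrasts with the comparison pairs. Its lower edge limits separate peaks at the shortest spacings. A peak that covers both summits must be longer than their spacing, and longer peaks were fewer. For pairs with both members at a −log10 q of at least 5, the repeated shares were higher, at 12.8% and 18.3%. Counted together, separate or joined peaks were found in the other library for 12.7% of the FLAG-wt-Cdx1 pairs and 13.2% of the FLAG-wt-Cdx2 pairs, against 10.6% and 10.7% of the comparison pairs.

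**Figure D3:**
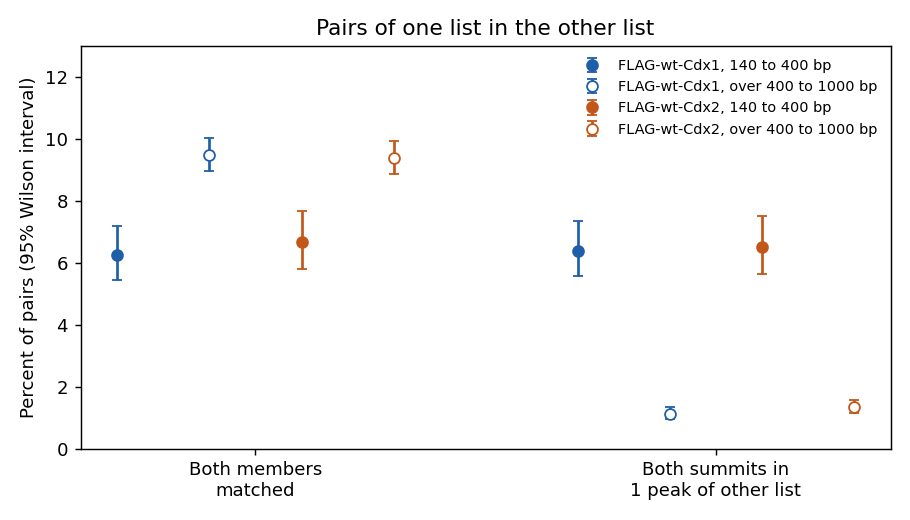
Percent of pairs (vertical axis; bars, 95% Wilson intervals) of FLAG-wt-Cdx1 (blue) and FLAG-wt-Cdx2 (orange) with both members matched within 100 bp in the other list, or with both summits inside 1 peak of the other list (horizontal axis). Filled points are pairs spaced 140 to 400 bp and open points those spaced over 400 to 1000 bp. The filled points lie below the open ones on the left and above them on the right.

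The outcome changed with spacing. With FLAG-wt-Cdx1, 3.51% of the pairs under 250 bp were repeated (1.62 to 7.44), 3.10% at 250 to 300 bp (2.02 to 4.74), 6.60% at 300 to 350 bp (5.20 to 8.36) and 8.19% at 350 to 400 bp (6.73 to 9.94). With FLAG-wt-Cdx2, these shares were 0.562% (0.0992 to 3.11), 3.22% (2.07 to 4.97), 7.57% (6.04 to 9.44) and 8.95% (7.33 to 10.9). Conversely, the share of pairs with both summits in 1 peak of the other list was 8.77%, 9.61%, 6.18% and 4.36% in these windows with FLAG-wt-Cdx1, and 12.9%, 9.32%, 6.5% and 3.72% with FLAG-wt-Cdx2. These joined peaks had median lengths of 513 bp in the FLAG-wt-Cdx2 list and 537 bp in the FLAG-wt-Cdx1 list. Pairs under 300 bp thus had 1 joined peak in the other library more often than pairs from 300 bp on. They had 2 separate ones less often. The windows under 250 bp and at 250 to 300 bp were alike with FLAG-wt-Cdx1 within counting error for the repeated share. The peak calling bounds this trend, because its lower edge also limits separate peaks at short spacings in the other list. A joined peak must also be longer than the spacing, and longer peaks were fewer. Whether the trend goes beyond these limits was not tested.

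The outcome also changed with height. When the lower member had under 8 fragments, 3.29% of the FLAG-wt-Cdx1 pairs (2.25 to 4.77) and 4.06% of the FLAG-wt-Cdx2 pairs (3.17 to 5.18) were repeated. With 13 to 17 fragments, these were 14.1% (9.83 to 19.9) and 18% (12.2 to 25.8). With 18 or more, 12 of 78 FLAG-wt-Cdx1 pairs (15.4%; 9.03 to 25.0) and 15 of 28 FLAG-wt-Cdx2 pairs (53.6%; 35.8 to 70.5) were repeated. Without chromosome 8, 11 of 37 FLAG-wt-Cdx1 pairs (29.7%; 17.5 to 45.8) were repeated, and the FLAG-wt-Cdx2 counts did not change. The comparison pairs, chromosome 8 included, also were repeated more often with height. Their shares were 4.26% and 4.95% under 8 fragments, and 18.8% and 27.6% at 13 to 17. With 18 or more, these were 22.5% (103 of 457) and 49.5% (95 of 192). Among pairs with 1 matched member and unequal pileups, the matched member was the higher one in 65.9% in the FLAG-wt-Cdx1 list (720 of 1092; 63.1 to 68.7) and in 65.6% in the FLAG-wt-Cdx2 list (641 of 977; 62.6 to 68.5). The median pileup in repeated pairs was 11 in the FLAG-wt-Cdx1 list and 10 in the FLAG-wt-Cdx2 list, against 9 and 8 where neither member was matched.

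In 140 cases the pair was a pair of 140 to 400 bp in both lists, which is 4.84% of the FLAG-wt-Cdx1 pairs and 5.19% of the FLAG-wt-Cdx2 pairs. Their median spacing was 339 bp in the FLAG-wt-Cdx1 list and 342 bp in the FLAG-wt-Cdx2 list, and none was under 213 bp or 222 bp, respectively. The summits of a member lay a median of 24 bp apart between the lists. The spacing differed by a median of 29 bp and by at most 140 bp, and it was within 20 bp in 52 pairs (37.1%). Across these pairs, Spearman's rho of the spacings was 0.172 (n = 140), a description over a range that is narrowed by the rule in both lists. The exact spacing was thus only loosely repeated.

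**Figure D4:**
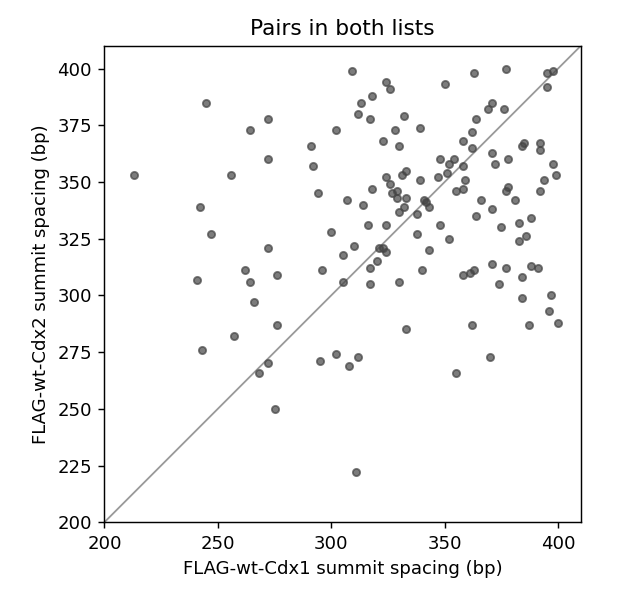
Summit spacing in bp of the 140 pairs found in both lists, with FLAG-wt-Cdx1 on the horizontal and FLAG-wt-Cdx2 on the vertical axis, 1 point per pair, and a line of equal spacing. The points scatter widely around the line, with 52 of them within 20 bp of it.

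Which member was the higher was repeated weakly. Among the repeated pairs without ties, the higher member lay on the same side in both libraries in 91 of 158 FLAG-wt-Cdx1 pairs (57.6%; 95% Wilson interval, 49.8 to 65) and in 96 of 156 FLAG-wt-Cdx2 pairs (61.5%; 53.7 to 68.8). With equal odds for either side the share would be 50%, which the former interval includes and the latter does not. This contrast between the lists depended on the setting. By fold enrichment, the intervals were 50.3 to 64.8 and 54.1 to 68.4, and both left out 50%. With summits matched within 50 bp, they were 49.3 to 68.4 and 47.8 to 67.3, and both included it. Among the 140 pairs of both lists, 69 of the 121 without ties (57.0%) had the higher member on the same side. Where the members differed at least 1.5 times in both libraries, 16 of 21 pairs of either list had the higher member on the same side (76.2%; 54.9 to 89.4). The counts of the lists rest largely on the same sites. In the comparison pairs, the shares were 66.8% (63.6 to 69.8) and 64.5% (61.3 to 67.6).

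The 10 pairs with the highest fold enrichment in both lists, ranked by the lowest of the 4 values, had spacings of 300 to 399 bp, and their summits lay at most 44 bp apart between the lists. The strongest was on chromosome 16. With FLAG-wt-Cdx1, its peaks spanned chr16:85552769-85552993 and chr16:85553110-85553393, with summits at 85552893 and 85553231 (338 bp apart). The pileups were 60 (95% exact Poisson interval, 45.8 to 77.2) and 63 (48.4 to 80.6) fragments, and the fold enrichments were 13.1 and 13.9. With FLAG-wt-Cdx2, the summits were at 85552895 and 85553222 (327 bp apart), with pileups of 61 (46.7 to 78.4) and 51 (38.0 to 67.1) and fold enrichments of 15.7 and 13.2. All 4 pileups were thus far above the median and their intervals overlapped, and the local background here was 3.64 fragments in the FLAG-wt-Cdx1 list and 2.95 in the FLAG-wt-Cdx2 list. The rank is by fold enrichment, and some other pairs of both lists had higher pileups. For example, a pair on chromosome 10 had 196 and 115 fragments with FLAG-wt-Cdx1 and 196 and 114 with FLAG-wt-Cdx2. Its lowest fold enrichment was 3.33.

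The next was on chromosome 22, with FLAG-wt-Cdx1 summits at 50467402 and 50467800 (398 bp apart) and FLAG-wt-Cdx2 summits at 50467385 and 50467784 (399 bp apart). Its pileups were 18 and 23 with FLAG-wt-Cdx1 and 23 and 23 with FLAG-wt-Cdx2, so that both height and spacing were nearly the same in the libraries. A second pair on chromosome 16, at 89046649 and 89047033, had pileups of 17 and 15 with FLAG-wt-Cdx1 and 16 and 15 with FLAG-wt-Cdx2, but the spacing was 384 bp in the former and 308 bp in the latter. On chromosome 11, at 36331188 and 36331531, the pileups were 19 and 25 with FLAG-wt-Cdx1 and 16 and 28 with FLAG-wt-Cdx2, with spacings of 343 bp and 339 bp. Here the higher-coordinate member was the higher in both libraries.

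Pileups differed between the libraries at other pairs. On chromosome 7, at 117212739 and 117213127, FLAG-wt-Cdx1 had 22 and 15 fragments, whereas FLAG-wt-Cdx2 had 40 and 51. The intervals of the higher-coordinate member did not overlap, at 8.40 to 24.7 with FLAG-wt-Cdx1 and 38.0 to 67.1 with FLAG-wt-Cdx2. The pair on chromosome 4 at 134988683 and 134988999 had 13 and 12 fragments with FLAG-wt-Cdx1 and 13 and 31 with FLAG-wt-Cdx2, where the higher-coordinate member again differed beyond the intervals. These were the only 2 of the 20 sites of the 10 pairs at which the intervals of the libraries did not overlap, and the pileups are not scaled to depth, the FLAG-wt-Cdx2 library being the smaller one.

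The remaining 4 pairs had summits at 146833020 and 146833412 of chromosome 3, at 143283355 and 143283727 of chromosome 1, and at 115978512 and 115978883 and at 106745954 and 106746254 of chromosome 4 with FLAG-wt-Cdx1. Their FLAG-wt-Cdx1 pileups lay between 11 and 20, and their FLAG-wt-Cdx2 pileups between 10 and 31. Within each of the 10 pairs, the intervals of the members overlapped in both libraries. The higher member was on the same side in 3 of the 9 pairs without ties.

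**Figure D5:**
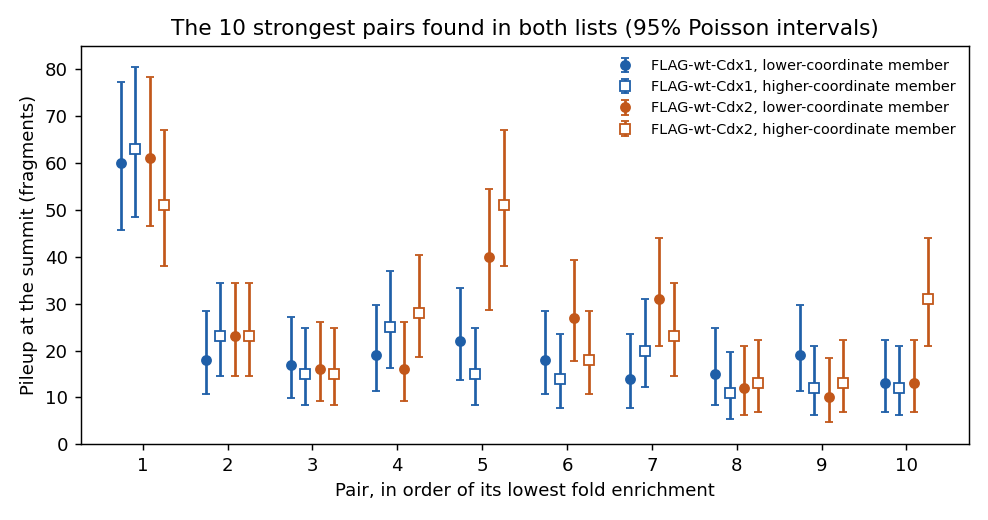
Pileup in fragments (vertical axis, with 95% exact Poisson intervals as bars) of the members of 10 pairs found in both lists (horizontal axis). They are the 10 with the highest fold enrichment, not the highest pileup, in order of their lowest fold enrichment. Filled circles are lower-coordinate and open squares higher-coordinate members of FLAG-wt-Cdx1 (blue) and FLAG-wt-Cdx2 (orange). The first pair, on chromosome 16, stands at 51 to 63 fragments, and FLAG-wt-Cdx2 stands above FLAG-wt-Cdx1 at the fifth pair, on chromosome 7.

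Within each list, the pairs with the highest fold enrichment of the lower member again began with those on chromosome 16. With FLAG-wt-Cdx1, it was followed by a pair on chromosome 11 at 105464382 and 105464772, with pileups of 22 and 20, and by a pair on chromosome 13 at 39361626 and 39361991, with 17 and 20. Both members of these pairs were matched with FLAG-wt-Cdx2, with pileups of 19 and 7 and of 14 and 6. The pileups are not scaled to depth, and whether the lower ones differ beyond counting error was not tested. The chromosome 22 pair followed, and then a pair on chromosome 13 at 29074559 and 29074897, with pileups of 19 and 27, where FLAG-wt-Cdx2 had 1 peak of 546 bp with a pileup of 12.

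With FLAG-wt-Cdx2, the chromosome 16 pair was followed by the chromosome 7 pair and by a pair on chromosome 10 at 61427765 and 61428154, with pileups of 26 and 27. FLAG-wt-Cdx1 had 19 and 17 fragments at the latter. The chromosome 22 pair followed, and then a pair on chromosome 1 at 219067097 and 219067405, with pileups of 16 and 26. Only its higher-coordinate member was matched, by a FLAG-wt-Cdx1 peak with 22 fragments. Of these 5 pairs in each list, both members were thus matched in 4 in the FLAG-wt-Cdx1 list and in 4 in the FLAG-wt-Cdx2 list.

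Pairs were spread over all autosomes. The share of peaks that were members ranged from 2.37% on chromosome 14 to 4.43% on chromosome 19 with FLAG-wt-Cdx1 (median, 2.90%), and from 2.01% on chromosome 13 to 3.60% on chromosome 22 with FLAG-wt-Cdx2 (median, 2.49%). On chromosome 19, the share was 3.10% with FLAG-wt-Cdx2 (2.61 to 3.68), below the interval with FLAG-wt-Cdx1 (3.86 to 5.08). Chromosome 8 held 222 of the FLAG-wt-Cdx1 pairs and 125 of the FLAG-wt-Cdx2 pairs, and its shares of members were 3.34% and 2.23%. Of the bins of 1 Mb, 1663 held at least 1 FLAG-wt-Cdx1 pair and 1641 at least 1 FLAG-wt-Cdx2 pair, and bins with 5 or more pairs held 6.88% and 3.52% of the pairs, respectively.

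The peak at LGR5 was not a member of a pair in either library. LGR5 is a receptor for R-spondins and a marker of intestinal stem cells. The window of chromosome 12 that the study drew for this gene held 1 FLAG-wt-Cdx1 peak, with its summit at 71834615, and 1 FLAG-wt-Cdx2 peak, with its summit at 71834625. The nearest FLAG-wt-Cdx1 summits lay 6938 bp and 7218 bp away on either side, and the nearest FLAG-wt-Cdx2 summits 6133 bp and 11099 bp. The site was thus a single peak of 222 bp or 255 bp, without a companion at nucleosome spacing. Genes at the pairs and the DNA sequences under their summits were not analyzed here.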

How the data were processed

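DLD1-TetOff cells expressing FLAG-wt-Cdx1 or FLAG-wt-Cdx2 were analyzed by ChIP-seq, with 1 library each, assigned by the sample titles. The submitters' processing notes name bcl2fastq 1.8.3, cutadapt 1.1, Trimmomatic 0.32, MACS2 2.0.10 and the build GRCh37. The aligner is not given in the sources used here. Per the file headers, MACS 2.0.10.20131216 was run per library without a control, keeping at most 1 tag per position, with a cutoff of 0.05 on the q-value and a local background over 10000 bp. Of 17264704 FLAG-wt-Cdx1 tags and 14534643 FLAG-wt-Cdx2 tags, 16452141 and 13781541 were kept. The deposited values are the pileup signal (fragments, not scaled to depth), the −log10 p and −log10 q, the ratio of pileup to local background (fold enrichment), and a score. The score equaled the −log10 q times 10 without decimals at every peak. Both files of a library listed identical peaks.

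Peaks of each autosome were sorted by summit, and neighbors with summits 140 to 400 bp apart, both limits included, were taken as pairs. Windows of distance include their lower and leave out their upper edge. Background was recovered from pileup and fold enrichment. A pair was repeated when each member had the summit of a different peak of the other list within 100 bp. Shares have 95% Wilson intervals, density ratios and pileups exact ones. The named items are the 5 pairs per list with the highest fold enrichment of the lower member, the 10 such pairs of both lists, and the 3 longest runs per list (runs of equal length ordered by their lowest fold enrichment, which the rule did not fix), all without chromosome 8, where the background differed between the libraries in earlier results. The scripts were tested on simulated data with planted pairs. Members, rules and lists were chosen with earlier results of these data known. No test between the factors was made with 1 library each. Alternatives covered thresholds, windows, matching and chromosome 8. No genome sequence or annotation of GRCh37 was used here, so motif content was not computed. Computation was in Python 3.11.15 (scipy 1.17.1, numpy 2.4.6, pandas 2.3.3), and plots were made in matplotlib 3.10.9.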

Additional observations from a re-analysis of the deposited data

Results flagged for a closer look

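Chromosome X was outside the rule, which covers autosomes, and was looked at because it also held pairs, more than the 3 that a count of 0 would allow. With FLAG-wt-Cdx1, 15 pairs held 30 of its 2428 peaks (1.24%; 95% Wilson interval, 0.867 to 1.76), and with FLAG-wt-Cdx2, 30 pairs held 60 of 3468 peaks (1.73%; 1.35 to 2.22). Both shares were below those of all autosomes.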

How the results depend on the processing

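Of 74 values under alternatives, 44 stayed within the counting interval, or for counts within 1.5 times. No ratio or share whose interval left out equality changed its side. Between the lists, the ratio at 330 to 400 bp, whose interval includes 1, was 0.995 with edges moved down and 0.954 for summits without a match, an alternative chosen after seeing the data. With a −log10 q of at least 5, there were 609 FLAG-wt-Cdx1 and 295 FLAG-wt-Cdx2 pairs, holding 1.20% and 0.941% of the peaks. With a limit of 300 bp, there were 828 and 788 pairs, holding 0.849% and 0.734%. Without peaks whose background was over 2 times the genome-wide value, the shares were 2.76% and 2.29%. With fewer peaks, 0 pairs of either list lay at 150 to 200 bp (−log10 q of at least 5), and the ratio there was 0. Between the lists, the ratio at 150 to 200 bp was 0.963 with that threshold and 0.808 with edges moved down by 10 bp. Within the lists, the ratios to both flanks at 330 to 400 bp did not leave their intervals in any alternative run, and with edges moved down they were 1.21 and 1.14. The share of repeated pairs was 3.98% and 4.15% with summits within 50 bp, 7.98% and 8.63% within 200 bp, 9.16% and 9.33% with overlap of at least 1 bp, and 12.8% and 18.3% for pairs with both members at a −log10 q of at least 5. The median pileup ratio was 1.17 and 1.20 with that threshold, and 1.24 and 1.22 for fold enrichment. Where members differed at least 1.5 times, 76.2% of the repeated pairs of either list had the higher member on the same side. Among pairs with at least 18 fragments, 29.7% of the FLAG-wt-Cdx1 pairs were repeated without chromosome 8, an alternative chosen after seeing the data. Apart from changes that follow from fewer peaks or another window, the cause was not tested. Motif content was not run. No paired analysis was possible because each factor had a single library, so that none could be left out either.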
